A study of Mus musculus with 6 samples.

Results

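Megakaryocyte and platelet genes were followed in the whole bone marrow of untreated and of NOX-A12-treated SCID/Bg mice. A list of 32 genes of this lineage was set by name. Each gene was read from 1 Affymetrix Mouse Genome 430 2.0 probe set, the one with the highest mean intensity over the 6 arrays among those naming that gene alone. Of the 32 genes, 30 had such a probe set, out of 18193 genes measured in the series, and all 30 lay above the median intensity of the table. The other two, Gp1ba and Ptgs1, were not analysed here. Marrow came from 3 untreated mice and 3 mice given NOX-A12, with 1 mouse per array, and the labels number the mice separately. NOX-A12 is a mirror-image oligonucleotide that binds the chemokine CXCL12. Both groups were of the SCID/Bg strain, whose scid and beige mutations leave it without mature T and B lymphocytes and with defective lysosome-related granules, the dense granules of platelets among them. The control mice received no treatment per the labels, and the labels used here state no vehicle, dose, schedule, age or sex.

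Megakaryocytes are the large polyploid marrow cells that extend processes through sinusoid walls and shed platelets into the blood. CXCL12 attracts them through its receptor CXCR4 and guides them from the endosteal niche to the sinusoids. Their transcripts pass into platelets and encode the chemokines and clotting proteins of the alpha granule, the receptors for fibrinogen, von Willebrand factor, collagen and thrombin, and the machinery of secretion and shape change. Megakaryocytes are rare in marrow, so a whole-marrow sample holds few of them. In such bulk samples fewer megakaryocytes and less RNA per megakaryocyte cannot be told apart.

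Median intensity over the 45037 probe sets lay between 44.8 and 45.6 on the 6 arrays. Precision is limited by having 3 arrays per group. The array of untreated mouse 3 stood apart: 851 of its probe sets differed by over 2-fold from the others' median, against 44 to 67 for any other mouse. Neutrophil and erythroid cells are the main cells of marrow. The neutrophil granule gene Ltf read 10109, 10100.2 and 8369 in the untreated and 10139, 9873 and 9112 in the treated mice. The erythroid transcription factor gene Klf1 read 4273, 3621 and 3527 in the untreated and 3902, 3958 and 3824 in the treated mice, whereas the probe set of the globin gene Hba-a1 was below the median intensity on every array. It was the only probe set naming that gene alone. Probe sets naming several genes were not read, so the globin level of the marrow cannot be judged from it.

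None of the 30 megakaryocyte and platelet genes separated the treated from the untreated mice. The groups overlapped for all 30, whereas over all genes 3.92% lay higher in every treated mouse and 6.65% lower. The median change in log2(intensity + 16), treated minus untreated, was -0.07 over the 30 genes and -0.01 over all genes, with 19 of the 30 (63.3%) and 52.8% of all genes on the lower side. Single changes ran from -0.34 for Mylk to 0.54 for Thbs1. Of the 30, 24 were smaller than the standard deviation between mice of a group, as were 12786 of all 18193 genes. In the limma test 0 of 30 passed at an adjusted p under 0.05, as did 0% of all probe sets, and the adjusted p of the 30 lay between 0.967 and 0.996. At an unadjusted p under 0.05 there were also 0 of 30, against 1.78% of all genes higher and 3.52% lower. The 95% interval of the change stayed within 2-fold in either direction for 29 of the 30 genes and within 1.5-fold for 17. The log2(intensity + 16) scale understates changes of dim probe sets. A p over the threshold does not show equal levels.

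**Figure D1:**
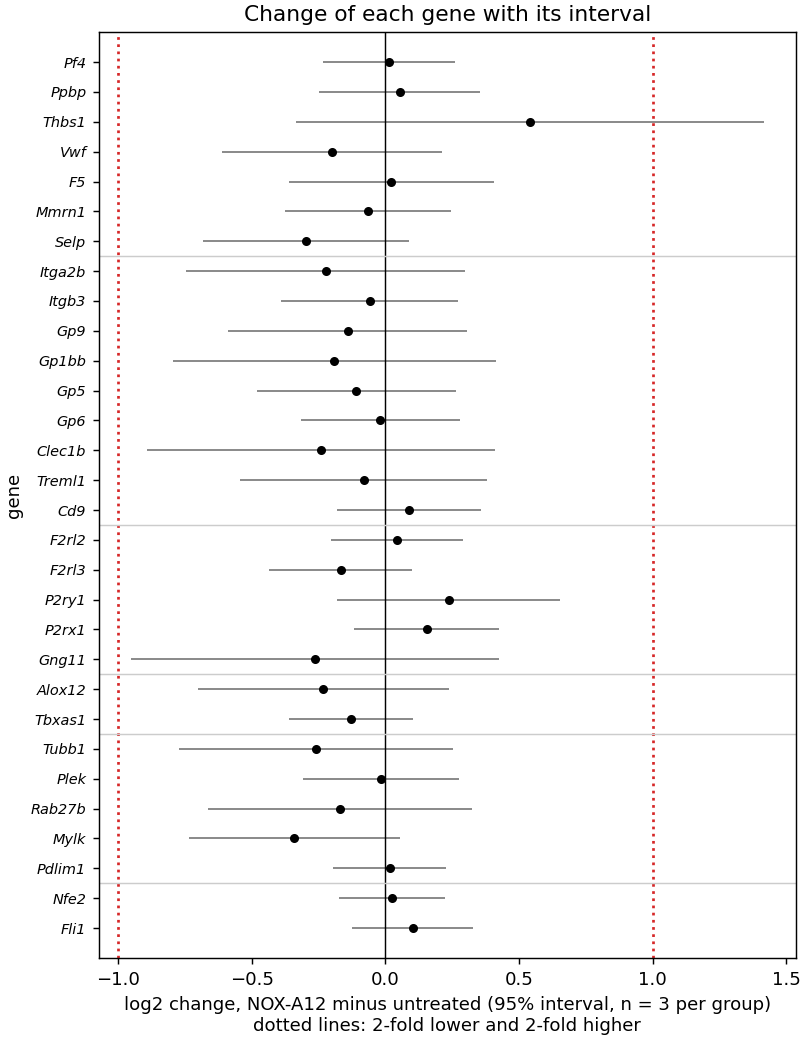
Log2 change of each megakaryocyte and platelet gene, NOX-A12 minus untreated (x axis), with its 95% interval from limma (n = 3 mice per group); rows are genes ordered by role, and dotted lines mark 2-fold lower and higher. All 30 intervals include 0, and that of Thbs1 alone reaches past 2-fold.

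The larger differences ran between mice of the same group. The mean level of the 30 genes, as log2 deviation from the mean of the 6 mice, was -0.18, 0.20 and 0.07 in untreated mice 1, 2 and 3 and -0.11, -0.10 and 0.11 in NOX-A12 mice 1, 2 and 3. Untreated mouse 1 and NOX-A12 mice 1 and 2 were low, and untreated mice 2 and 3 and NOX-A12 mouse 3 were high, so both groups held mice of each kind. The group means, -0.03 ± 0.12 (SD, n = 3) in treated and 0.03 ± 0.19 (SD, n = 3) in untreated mice, differed by -0.06. This difference is smaller than either SD.

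The same order recurred from gene to gene. Untreated mouse 1 was the lowest of the untreated mice for 19 of the 30 genes, and NOX-A12 mouse 3 was the highest of the treated mice for 23. Both held together for 17 of the 30 (56.7%), against 13.9% of all genes. Untreated mouse 2 lay above the mean of the 6 mice for 26 of the 30 genes, NOX-A12 mouse 3 for 24, untreated mouse 3 for 20, NOX-A12 mouse 2 for 8, NOX-A12 mouse 1 for 5 and untreated mouse 1 for 2. Over all genes the corresponding shares ran from 45.7% to 55.5%. This order was noticed in the values themselves, and the counts are a description with no test. The median standard deviation between mice of a group was 0.23 on the log2 scale for the 30 genes, and 0.13 for all genes above the median intensity.

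**Figure D2:**
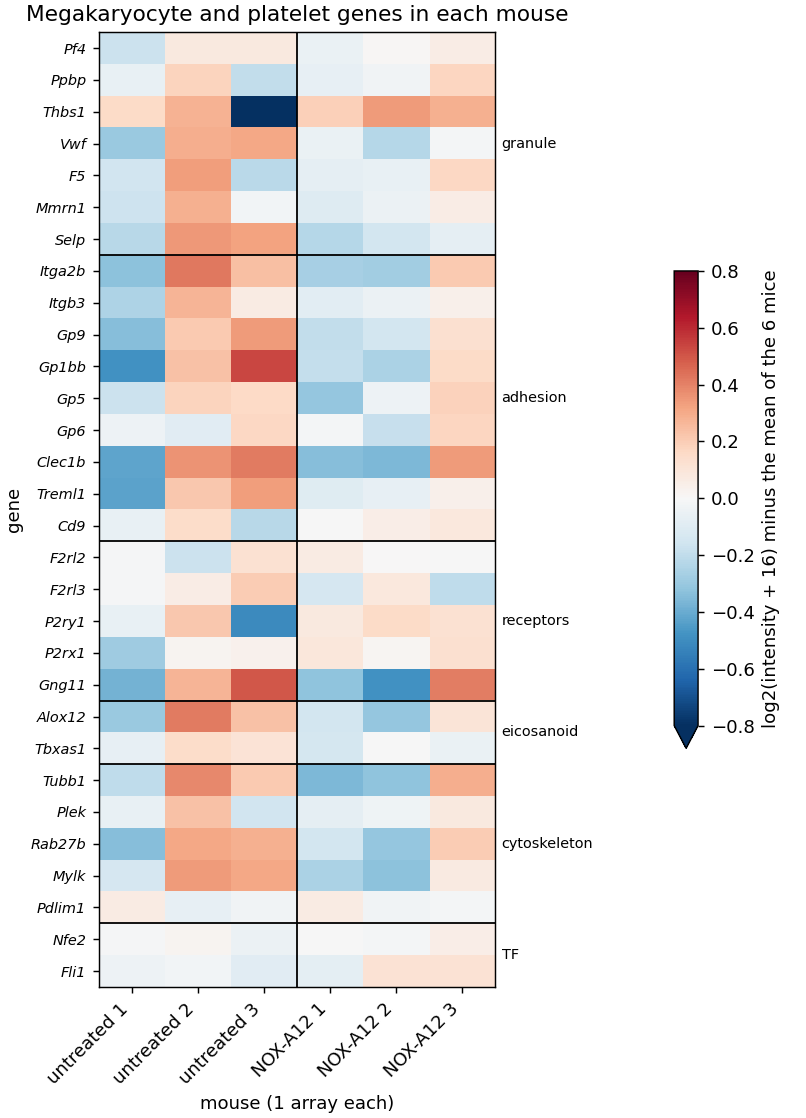
Log2(intensity + 16) of each gene in each mouse minus the mean of the 6 mice (colour), with genes in rows by role and mice in columns; the vertical line parts untreated from NOX-A12 mice. Most adhesion receptor genes are blue in untreated mouse 1 and NOX-A12 mice 1 and 2 and red in the other 3 mice, while Thbs1 and P2ry1 are low in untreated mouse 3, where Thbs1 lies beyond the end of the colour scale.

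**Figure D3:**
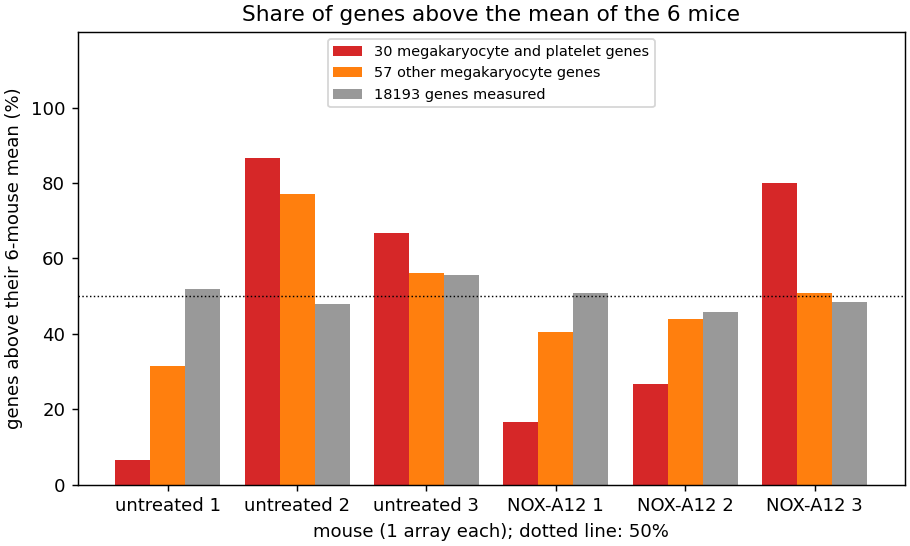
Share of genes above their 6-mouse mean (y axis, percent) in each mouse, for the 30 megakaryocyte and platelet genes, 57 other genes of the lineage and all 18193 genes. Among the 30 genes the share is 6.67% in untreated mouse 1 and 86.7% in untreated mouse 2, and all genes stay near 50% in every mouse.

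The 7 genes of granule and secreted proteins had a median log2 change of 0.01, with 4 higher and 3 lower. Pf4, which encodes platelet factor 4, the chemokine that defines the alpha granule, read 5200.4, 6179 and 6177 in untreated mice 1, 2 and 3 and 5655, 5894 and 6118 in NOX-A12 mice 1, 2 and 3. Its treated values all lay inside the untreated range, and its log2 change was 0.01 ± 0.10 (SE), with a 95% interval of -0.23 to 0.26. Ppbp, the precursor of the platelet's neutrophil-attracting chemokines, read 4538, 5363 and 4138 in the untreated and 4530.1, 4641 and 5349 in the treated mice, a change of 0.05 ± 0.13. In both groups 1 mouse stood above the rest, untreated mouse 2 and NOX-A12 mouse 3. F5, encoding coagulation factor V, read 914, 1289 and 876 in the untreated and 970.1, 977 and 1143 in the treated mice, a change of 0.02 ± 0.16. Mmrn1, whose product multimerin binds factor V in the granule, read 257, 356 and 285 in the untreated and 268, 280.1 and 302 in the treated mice, a change of -0.06 ± 0.13. In both genes untreated mouse 2 was the highest of all mice.

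Within the same set, Vwf and Selp are made by endothelial cells as well as megakaryocytes. Vwf, encoding von Willebrand factor, which tethers platelets to damaged vessel walls, read 378, 574 and 581 in untreated mice 1, 2 and 3 and 450.1, 396 and 462 in NOX-A12 mice 1, 2 and 3, a change of -0.20 ± 0.17. Selp, encoding P-selectin, the granule receptor that binds leukocytes after activation, read 234, 355 and 347 in the untreated and 233, 247 and 261 in the treated mice. Its change was -0.30 ± 0.16, with an interval of -0.68 to 0.09. The direction was not shared by its 2 dimmer probe sets, whose changes were 0.04 and 0.13. In both genes untreated mouse 1 sat within or below the treated range while untreated mice 2 and 3 sat above every treated mouse. Thbs1, encoding the adhesive protein thrombospondin, read 849.6, 926 and 312 in the untreated and 871, 966 and 931 in the treated mice. Only untreated mouse 3 was low, and the change of 0.54 ± 0.37 became 0.05 without that mouse.

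The adhesion and activation receptors carried the mouse order most clearly, with 8 of 9 genes lower, a median of -0.11 and 0 of 9 passing. NOX-A12 mouse 3 was the highest treated mouse for all 9 genes, and untreated mouse 1 the lowest untreated mouse for 7. Itga2b and Itgb3 encode the subunits of the fibrinogen receptor that links platelets into a clot. Itga2b read 1194, 2015 and 1781 in untreated mice 1, 2 and 3 and 1245, 1234 and 1743 in NOX-A12 mice 1, 2 and 3, a change of -0.22 ± 0.22 with an interval of -0.75 to 0.30. Itgb3 read 475, 686 and 592 in the untreated and 533, 548 and 583 in the treated mice, a change of -0.06 ± 0.14. Untreated mouse 1 and NOX-A12 mice 1 and 2 had nearly the same Itga2b intensity, whereas the highest untreated mouse was 1.69 times the lowest.

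Gp9, Gp1bb and Gp5 encode parts of the receptor for von Willebrand factor. Gp1bb read 548, 915 and 1131 in untreated mice 1, 2 and 3 and 678, 647 and 862 in NOX-A12 mice 1, 2 and 3, a change of -0.19 ± 0.26. The highest untreated mouse was 2.06 times the lowest, and the treated mice lay between them. Gp9 read 322, 479.5 and 526 in the untreated and 357, 371 and 452 in the treated mice, a change of -0.14 ± 0.19, with the same low and high mice. Gp5 read 283, 365 and 362 in the untreated and 257, 312 and 368 in the treated mice, a change of -0.11 ± 0.16. Gp6, the collagen receptor gene, read 158, 152 and 185 in the untreated and 161, 142 and 186 in the treated mice, a change of -0.02 ± 0.13, and its lowest mouse was NOX-A12 mouse 2.

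Clec1b encodes the platelet receptor for podoplanin, and it had the widest interval of this set. It read 869, 1505 and 1566 in untreated mice 1, 2 and 3 and 917, 906 and 1484 in NOX-A12 mice 1, 2 and 3, so that untreated mouse 1 and NOX-A12 mice 1 and 2 lay together well below the other 3 mice. Its change was -0.24 ± 0.28, with an interval of -0.89 to 0.41. Treml1, encoding a receptor stored in alpha granules and exposed on activation, read 323, 514 and 559.7 in the untreated and 411, 419.6 and 454 in the treated mice, a change of -0.08 ± 0.20. Here the treated mice were close together inside the untreated range. Cd9, a tetraspanin abundant on platelets but present on many other cells, read 1676, 1933 and 1496 in the untreated and 1741, 1809.5 and 1856 in the treated mice. Its change was 0.09 ± 0.12, and untreated mouse 3 rather than mouse 1 was its lowest mouse.

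Promoters are shown for Pf4, Itga2b and Gp9, which share the order of the mice, and for Ppbp, in which untreated mouse 3 was lowest. Each is the RefSeq window from 250 bases before to 50 bases after the gene's start (GRCm38.p6), written along the gene's strand from 5′ to 3′. Capitals mark matches, on either strand, to AGATAA or TGATAA, letters bound by GATA factors, and to GGAAGT or GGAAGC, letters bound by ETS factors such as FLI1. None of these motifs overlapped another in the windows shown.
Pf4 (chr5:90772185-90772484, plus strand): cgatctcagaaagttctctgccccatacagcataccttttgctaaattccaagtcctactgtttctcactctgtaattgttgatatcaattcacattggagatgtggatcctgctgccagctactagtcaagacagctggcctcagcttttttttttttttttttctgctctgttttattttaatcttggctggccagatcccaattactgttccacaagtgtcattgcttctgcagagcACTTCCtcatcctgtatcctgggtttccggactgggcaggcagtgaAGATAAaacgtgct
Ppbp (chr5:90768268-90768567, plus strand): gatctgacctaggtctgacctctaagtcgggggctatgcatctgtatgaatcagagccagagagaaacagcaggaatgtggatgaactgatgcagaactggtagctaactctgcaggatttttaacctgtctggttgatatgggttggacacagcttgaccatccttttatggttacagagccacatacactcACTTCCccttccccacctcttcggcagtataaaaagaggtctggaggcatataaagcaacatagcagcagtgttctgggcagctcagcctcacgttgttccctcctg
Itga2b (chr11:102469834-102470133, minus strand): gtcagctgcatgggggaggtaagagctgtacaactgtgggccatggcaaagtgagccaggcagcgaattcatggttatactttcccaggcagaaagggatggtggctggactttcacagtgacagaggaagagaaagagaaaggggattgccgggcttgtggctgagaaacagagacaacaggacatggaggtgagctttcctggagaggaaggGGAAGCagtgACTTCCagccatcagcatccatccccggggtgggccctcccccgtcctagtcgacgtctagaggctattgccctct
Gp9 (chr6:87777820-87778119, plus strand): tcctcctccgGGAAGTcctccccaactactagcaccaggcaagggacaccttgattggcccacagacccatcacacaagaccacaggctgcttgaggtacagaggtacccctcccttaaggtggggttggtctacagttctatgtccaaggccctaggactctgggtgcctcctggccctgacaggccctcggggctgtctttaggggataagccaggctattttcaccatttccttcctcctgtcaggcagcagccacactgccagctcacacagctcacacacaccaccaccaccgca
The Pf4 window held 1 match of each kind, Itga2b held 2 ETS matches, and Ppbp and Gp9 held 1 ETS match each. Of the 30 genes, 23 had a window in the RefSeq table; Thbs1, Vwf, Itgb3, Gng11, Rab27b, Nfe2 and Fli1 did not. An ETS match was present in 15 of these 23 (65.2%) and a GATA match in 8 (34.8%), against 43.6% and 18.6% of all 32851 windows. The 62 windows of 48 further megakaryocyte genes, described later, held an ETS match in 48.4%, a GATA match in 9.68% and both in 1.61%. Both kinds stood together in 6 of the 23 (26.1%), namely Pf4, Mmrn1, Gp5, Gp6, F2rl2 and F2rl3, against 7.26% of all windows. The matches are letters in a window and show no binding, and a window without them says nothing about these factors.

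Receptors for thrombin and nucleotides, with a G-protein subunit, gave a median change of 0.04 over 5 genes, 2 of them lower. F2rl2 and F2rl3 encode protease-activated receptors that thrombin cleaves on mouse platelets. F2rl2 read 366, 325 and 403 in untreated mice 1, 2 and 3 and 387, 369 and 369 in NOX-A12 mice 1, 2 and 3, and its treated values lay inside the untreated range. F2rl3 was dim, at 64.9, 69 and 77.7 in the untreated and 58.2, 70.3 and 54.9 in the treated mice, a change of -0.17 ± 0.11, and NOX-A12 mouse 2 kept its groups overlapping. P2ry1, an ADP receptor gene that starts platelet shape change, was close to the median intensity of the table at 45.8, 58.9 and 29.3 in the untreated and 52.2, 55.8 and 54 in the treated mice. Its change of 0.24 ± 0.18 became 0.04 without untreated mouse 3. P2rx1, an ATP-gated channel gene, read 210.2, 264 and 267 in the untreated and 277, 263 and 286 in the treated mice, a change of 0.15 ± 0.12, with untreated mouse 1 lowest of the 6 mice. The changes of F2rl2 and P2rx1 had intervals of -0.20 to 0.29 and -0.12 to 0.43.

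Gng11, the gamma subunit of a heterotrimeric G protein, differed widely between mice of each group. It read 542, 859 and 1008 in untreated mice 1, 2 and 3 and 564, 503 and 946 in NOX-A12 mice 1, 2 and 3. The highest mouse was 1.86 times the lowest among untreated and 1.88 times among treated mice, and the change of -0.26 ± 0.29 had an interval of -0.95 to 0.43. Its low mice were untreated mouse 1 and NOX-A12 mice 1 and 2, the same 3 as for Clec1b.

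Both eicosanoid enzyme genes were lower by small amounts. Alox12, encoding the lipoxygenase of platelets, read 678, 1125 and 987 in untreated mice 1, 2 and 3 and 756, 674 and 903 in NOX-A12 mice 1, 2 and 3, a change of -0.23 ± 0.20. Tbxas1, encoding thromboxane synthase, which makes the platelet activator thromboxane and is also made by macrophages, read 289, 337 and 328 in the untreated and 273, 303 and 291 in the treated mice, a change of -0.13 ± 0.10. NOX-A12 mouse 3 reached 903 for Alox12, between untreated mice 1 and 3, whereas for Tbxas1 the highest treated mouse was NOX-A12 mouse 2.

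Among the genes of cytoskeleton and secretion, 4 of 5 were lower, with a median of -0.17. Mylk, encoding the myosin light chain kinase that drives contraction in platelets and smooth muscle, had the smallest unadjusted p of the 30 genes in the limma fit, 0.0801. It read 413, 580.2 and 569 in untreated mice 1, 2 and 3 and 379.8, 359 and 479.8 in NOX-A12 mice 1, 2 and 3, a change of -0.34 ± 0.17 with an interval of -0.74 to 0.05. NOX-A12 mice 1 and 2 were below every untreated mouse, and NOX-A12 mouse 3 was above untreated mouse 1. Tubb1, the beta-tubulin of the platelet's marginal microtubule coil, read 1415, 2134 and 1886 in the untreated and 1268, 1301 and 1999 in the treated mice, a change of -0.26 ± 0.22. NOX-A12 mouse 3 exceeded 2 of the 3 untreated mice for this gene. Rab27b, a small GTPase of granule secretion, read 331, 530.2 and 521 in the untreated and 382, 339 and 490.0 in the treated mice, a change of -0.17 ± 0.21.

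Plek and Pdlim1 did not follow this order. Plek encodes pleckstrin, a protein kinase C substrate of platelets that other leukocytes also make. It read 2917, 3582 and 2733 in untreated mice 1, 2 and 3 and 2887, 2971 and 3212 in NOX-A12 mice 1, 2 and 3, a change of -0.02 ± 0.12, with untreated mouse 3 lowest. Its second probe set read 1612, 1726 and 575 in the untreated and 1456, 1513 and 1606 in the treated mice. That change was 0.37 ± 0.39, with only untreated mouse 3 low, and the dimmest probe set of Plek gave -0.0046. Pdlim1, a cytoskeletal adaptor gene expressed in many cell types, varied least of this set, at 1199.7, 1092 and 1122 in the untreated and 1198, 1120.2 and 1132 in the treated mice, a change of 0.02 ± 0.09.

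The probe sets read for the transcription factor genes differed little between mice. Nfe2, encoding a subunit of the factor required for platelet release and also expressed in erythroid cells, read 3537, 3617 and 3452 in untreated mice 1, 2 and 3 and 3562, 3530.4 and 3694 in NOX-A12 mice 1, 2 and 3. Its highest mouse was 1.05 times the lowest among untreated and 1.05 times among treated mice, and its change was 0.02 ± 0.08 with an interval of -0.17 to 0.22. Fli1, an ETS factor of megakaryocytes, endothelium and other blood cells, read 1471, 1494 and 1418 in the untreated and 1433, 1642 and 1639.7 in the treated mice, a change of 0.10 ± 0.10. Its other probe set varied more, at 441, 652 and 415 in the untreated and 554, 499.5 and 657 in the treated mice.

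Other probe sets of the same genes gave a second reading. There were 20 of them for 14 of the genes, 12 above the median intensity of the table, and 0 of the 20 had groups that did not overlap or an unadjusted p under 0.05. The sign of the change was that of the main probe set for 13 of the 20, and for 9 of the 12 brighter ones. In 6 of these 12, untreated mouse 1 was the lowest untreated and NOX-A12 mouse 3 the highest treated mouse. In the remaining 6, untreated mouse 3 was the lowest untreated mouse. The second probe set of Alox12 read 53.7, 98.6 and 111 in the untreated and 67.5, 56.9 and 81.8 in the treated mice. As in its main probe set, untreated mouse 1 was the lowest untreated and NOX-A12 mouse 3 the highest treated mouse, though the highest and lowest of all 6 mice differed. That of Thbs1 read 152, 145 and 51.7 in the untreated and 137, 185 and 159.8 in the treated mice, again low only in untreated mouse 3.

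Further genes of the lineage, none of them among the 30, were read from lists of transcription factors, thrombopoietin signalling, platelet signalling and adhesion, and granules and cytoskeleton. Of 63 genes, 57 had a probe set of their own, 30 were lower, and the median change was -0.01. In the limma test 0 of 57 passed over all probe sets, 1 was lower and 0 higher at an unadjusted p under 0.05, against 3.52% and 1.78% of all genes. The groups did not overlap for 1 lower and 1 higher gene of the 57, against 6.65% and 3.92% of all genes. The lower one was Gfi1b, a transcriptional repressor of the megakaryocyte and erythroid lineages, at 799, 960.5 and 1143 in the untreated and 799, 659.9 and 709 in the treated mice, a change of -0.40 ± 0.15 (unadjusted p 0.0288, limma adjusted p 0.967). Its lowest untreated and highest treated mouse were equal to the nearest unit. The higher one was Flna, encoding the actin cross-linker filamin A of platelets and many other cells, at 2715, 2694 and 2238 in the untreated and 3007, 3002 and 2806 in the treated mice, a change of 0.21 ± 0.11. Gata1, the master transcription factor of both lineages, read 1896, 1741 and 1971 in the untreated and 1706, 1868 and 1660.2 in the treated mice, a change of -0.10 ± 0.10, and Mecom -0.24 ± 0.14.

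In the remaining lists, Esam, an adhesion molecule gene of platelets and endothelium, gave -0.32 ± 0.15, and Pde5a, a cyclic GMP phosphodiesterase gene, -0.23 ± 0.18. The growth factor gene Pdgfa gave -0.43 ± 0.18 at a dim probe set. The kinase gene Jak2 and the transcription factor gene Stat5a, which relay cytokine signals, gave -0.13 ± 0.11 and -0.21 ± 0.18. These genes were named for having the smallest unadjusted p of their lists, and the groups overlapped for all of them. Of platelet signalling and adhesion genes 12 of 24 were higher. So were 7 of 16 granule and cytoskeleton genes and 2 of 5 thrombopoietin signalling genes. Thpo was not analysed here. The order of the mice recurred in part of these genes: untreated mouse 1 lowest and NOX-A12 mouse 3 highest in its group held for 18 of 57 (31.6%). Angpt1, an angiopoietin gene, read 301, 452 and 431 in the untreated and 313, 302 and 406 in the treated mice. Mmd, named for monocyte to macrophage differentiation, read 383, 621 and 566 in the untreated and 446, 311 and 549 in the treated mice. Gucy1b1, a subunit of the nitric oxide receptor, read 131, 199.8 and 227 in the untreated and 142, 157 and 214 in the treated mice. These 3 genes were picked after their values were seen, and in all 3 NOX-A12 mouse 3 stood with untreated mice 2 and 3. They are examples of the order and no further evidence of it.

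Cxcl12, which encodes the target of NOX-A12, read 3608, 3664 and 4098 in untreated mice 1, 2 and 3 and 2951, 2580.0 and 3131 in NOX-A12 mice 1, 2 and 3, a change of -0.39 ± 0.11 with a limma adjusted p of 0.926. Every treated mouse lay below every untreated mouse, as for 6.65% of all genes. Within the groups untreated mouse 1 was lowest and NOX-A12 mouse 3 highest, as for 17 of the 30 genes and 13.9% of all genes. Untreated mice 1 and 2 were close for Cxcl12 and untreated mouse 3 was highest, whereas untreated mouse 2 had the highest level of the 30 genes. Cxcr4, the receptor on megakaryocytes and most marrow leukocytes, read 1434, 1614 and 1625 in the untreated and 1559, 1625 and 1578 in the treated mice, a change of 0.03 ± 0.09 with overlapping groups. The scavenging receptor gene Ackr3 was dim, at 17.3, 11.5 and 28.2 in the untreated and 8.87, 13.9 and 13.7 in the treated mice.

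Lists of other marrow cells were set beside these values. In the erythroid list, whose cells share a progenitor with megakaryocytes, untreated mouse 1 had the highest level of the 6 mice at 0.15 and untreated mouse 3 the lowest at -0.13. Untreated mouse 1 was the lowest untreated mouse for 0 of 11 erythroid genes and for 1 of 8 neutrophil genes, against 33% of all genes. Untreated mouse 3, whose array stood apart, was the lowest untreated mouse for 10 of 11 erythroid and 6 of 8 neutrophil genes. It was also lowest for 5 of 9 monocyte and macrophage genes, against 31.7% of all genes. Where mouse 3 was lowest, mouse 1 could not be, so these lists cannot show whether mouse 1 was low in them. In the stem and progenitor list untreated mouse 1 was the lowest untreated mouse for 8 of 10 genes, and the full order of the mice held for 4 (40%), with summed intensities of 2052 to 2412 in untreated and 2017 to 2498 in treated mice. In the mast cell and basophil list NOX-A12 mouse 3 was the highest treated mouse for 6 of 7 genes, and the full order held for 2 (28.6%), with sums of 4297 to 4505 and 4144 to 4953. Each of these lists held a marker below the median intensity on every array, and Gata2, Mecom and Meis1 of these lists also stand in the megakaryocyte lists. The full order held for 3 of 8 skeletal muscle genes (37.5%), 0 of 11 erythroid and 1 of 8 neutrophil genes. It held for 0 of 9 monocyte and macrophage and 0 of 8 smooth muscle and pericyte genes, against 13.9% of all genes. The 3 skeletal muscle genes, Acta1, Actn3 and Myh4, were below the median intensity on every array, as were most smooth muscle and pericyte markers. Their order can therefore not be read as that of a tissue. The part of these lists in the order of the megakaryocyte genes was not tested.

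Endothelial genes, which share Vwf, Selp and Mmrn1 with megakaryocytes, averaged lower in treated mice for 13 of 13 markers, against 52.8% of all genes. Their median was -0.32, and single changes ran from -0.62 for Robo4 to -0.01 for Pecam1. The groups did not overlap for 6 of the 13, against 6.65% of all genes lower, and 0 of 13 passed at an adjusted p under 0.05 in limma. Their summed intensities were 1554 to 1874 in untreated and 1292 to 1364 in treated mice, and the dimmest marker lay below the median intensity on every array. The level of this list was -0.21, -0.12 and -0.14 in NOX-A12 mice 1, 2 and 3, so that NOX-A12 mouse 3 was low with the other treated mice. The order of the mice held for 2 of the 13. In the list of stromal reticular cells, which make CXCL12, the order held for 5 of 10 genes (50%). All 10 markers averaged lower in the treated group, with a median of -0.45 and sums of 6333 to 8178 in untreated and 4645 to 5872 in treated mice. The groups did not overlap for 6 of the 10, and 0 of 10 passed after adjustment. In smooth muscle markers, beside which Mylk belongs, the sums were 691 to 788 in untreated and 649 to 908 in treated mice. Acta2 and Rgs5, which made up most of these sums, differed in direction. Acta2, a smooth muscle actin gene, read 463, 405 and 365 in the untreated and 552, 607 and 422 in the treated mice, a change of 0.34 ± 0.16. Rgs5, a pericyte gene, read 286, 247 and 322 in the untreated and 218, 249.6 and 172 in the treated mice, a change of -0.40 ± 0.16. The part of these lists in the values of Vwf, Selp and Mylk, and in the order of the mice, was not tested.

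**Figure D4:**
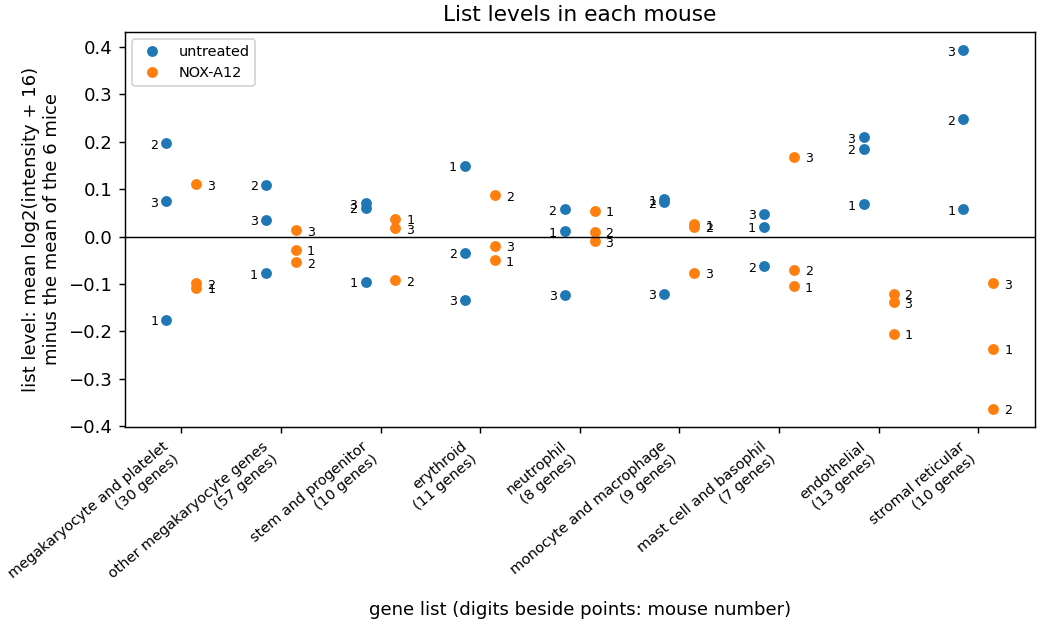
Level of each gene list in each mouse (y axis, mean log2(intensity + 16) minus the mean of the 6 mice); blue points are untreated and orange points NOX-A12 mice, with the mouse number beside each. In the megakaryocyte and platelet list NOX-A12 mouse 3 lies at 0.11 beside untreated mice 2 and 3, while in the endothelial list all treated mice lie below all untreated mice.

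Single mice set what could be read from the group comparison. Without untreated mouse 1 the median of the 30 genes was -0.19, and 8 genes were lower at an unadjusted p under 0.05, where 5.51% of all genes were. These were Vwf, Selp, Itga2b, Gp9, Gp1bb, Treml1, Alox12 and Mylk, with unadjusted p from 0.00314 for Selp to 0.0486 for Itga2b in the limma fit and adjusted p from 0.62 to 0.632. The groups then did not overlap, in either direction, for 13 of the 30, against 26.3% of all genes. Untreated mouse 1 was the lowest untreated mouse for 19 of the 30 genes, so leaving it out raises their untreated mean. Only untreated mice 2 and 3 then remain. These counts follow from the order already seen and are no support for a change. Without NOX-A12 mouse 3 the median was -0.11, and Tubb1 and Mylk were lower at an unadjusted p under 0.05, as were 3.28% of all genes. Without untreated mouse 2, P2ry1 alone passed it, as higher (0.40, limma unadjusted p 0.0392), as did 1.55% of all genes. Without untreated mouse 3, whose array stood apart, the median was -0.05 and 0 of 30 passed it. Leaving out NOX-A12 mouse 1 or 2 also gave 0 such genes, and 0 of 30 passed after adjustment without any of the 6.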

How the data were processed

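The authors deposited 1 table of probe-set intensity values for Affymetrix Mouse Genome 430 2.0 arrays, 1 mouse per array, in linear units; the software and normalization behind it are stated in none of the sources used here. Array medians of log2 intensity lay within 0.026, so no further scaling was applied. Probe sets were named through the platform annotation. Of 45037, 34945 named 1 gene, 932 several and 9160 none. All were fitted with limma 3.58.1 in R 4.3.3 on log2(intensity + 16), treated against untreated, two-sided, with Benjamini-Hochberg adjustment over all probe sets and a threshold of 0.05. The script was tested on simulated data. Promoter windows came from RefSeq.

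The genes and lists were chosen with earlier results of these data known. Every gene of the list is named, with each mouse's value. Of the other megakaryocyte lists, Gata1, the 2 genes of smallest unadjusted p per list and, after their values were seen, Angpt1, Mmd and Gucy1b1 are named, as are the markers Ltf, Klf1, Hba-a1, Acta2 and Rgs5. Alternatives covered normalization, offset, dim probe sets, variance model, array weights, mouse number, each mouse left out and choice of probe set.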

Additional observations from a re-analysis of the deposited data

How the results depend on the processing

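No probe set, and none of the 30 genes or the 57 other megakaryocyte genes, passed the adjusted threshold in limma under any alternative run; at an unadjusted p under 0.05 there were 2240 probe sets, none of them for the 30 genes. The median of the 30 genes stayed negative except with the second brightest probe set, available for 14 genes, where it was 0.0049. Leaving out 1 mouse moved it between -0.19 and -0.03. The number of the 30 genes lower at an unadjusted p under 0.05 was 1 with a variance trend and robust variances and 1 with array weights (Mylk in both), and 0 to 8 when 1 mouse was left out. The number higher was 0 to 1. Up to 6 of the 30 small changes turned sign without a single mouse, and up to 2 under another normalization, offset, variance model or array weights. With a gene's probe sets averaged 3 of 30 turned sign, and with the second brightest probe set 4 of 14. The count of probe sets at an unadjusted p under 0.05 was 1154 with dim probe sets left out, 1417 with probe sets of 1 gene averaged and 1114 with 1 probe set per gene, which test fewer features, and 1508 to 3555 with 1 mouse left out. With the mouse number as a replicate block it was 2117, and the median of the 30 genes stayed at -0.07. The labels number the mice of each group separately. Deviations of equal-numbered mice from their group means correlated at -0.09, 0.05 and 0.03 over probe sets, which are not independent. With so few mice these values cannot show whether equal numbers share anything. With 3 mice per group, the intervals of the more variable genes were wide. On the log2 scale that of Gng11 ran from -0.95 to 0.43, close to 2-fold lower. That of Thbs1 ran from -0.34 to 1.42, past 2-fold higher.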

Other observations

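In a pair of genes outside the megakaryocyte lists, untreated mouse 1 and NOX-A12 mice 1 and 2 lay below the other mice. The order among the low mice and among the high mice differed between these genes. Slamf1, from the stem and progenitor list, which encodes a signalling receptor used to isolate blood stem cells, read 281, 417 and 419 in the untreated and 296, 282 and 434 in the treated mice. Fcer1a, from the mast cell and basophil list, which encodes a chain of the high-affinity immunoglobulin E receptor, read 245, 293 and 357 in the untreated and 227, 231 and 349.8 in the treated mice. Both were picked after their values were seen.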
